A study of Mus musculus with 22 samples.

Results

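Meiotic chromosome axis and recombination genes were followed through sorted spermatogenic cells and liver of male mice with and without an extra part of chromosome 17. The 42 genes listed code for the synaptonemal complex, meiotic cohesin, the machinery that makes and repairs meiotic DNA breaks, and the telomere attachment of meiotic chromosomes. They were matched to the array by symbol or older synonym, which placed 34 of them among the 15780 named genes, with Sgol2 found under its current name Sgo2a. The other 8 (Hormad1, Hormad2, Rad21l, Zcwpw1, Spata22, Hfm1, Rnf212 and Majin) were not analysed here.

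Trisomic males carried the label Ts43H, and their euploid siblings the label t121/D17, whose parts the labels do not spell out. All males were 2 months old. Each genotype was measured on 3 arrays of pre-mid-pachytene spermatocytes, 2 of mid-late-pachytene spermatocytes, 3 of spermatids and 3 of liver, 22 Affymetrix arrays in all. The germ cells were separated by flow cytometry, and 20 to 30 ng of RNA went through a labelling protocol of 2 cycles. Whether replicate arrays stand for different animals is not given in the labels, so p-values measure the spread between arrays, which may be technical. Levels are log2 intensities, on which a difference of 1 is a 2-fold difference, and values below 3 are called the background range. A level depends on the probes of its gene and was compared only between samples, never between genes. In sorted or whole-tissue RNA, fewer cells of a type and less RNA per cell cannot be told apart.

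In meiotic prophase, cohesin complexes and axial proteins organise each chromosome into a linear axis of chromatin loops. The axes of homologous chromosomes are then zipped together by the synaptonemal complex while programmed DNA breaks, made by the SPO11 protein, are repaired on the homologue by strand exchange, in which the recombinase DMC1 takes part. A minority of these repair events mature into crossovers, which hold the homologues together until the first meiotic division.

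A RefSeq promoter sequence (GRCm38.p6) was at hand for 30 of the 34 genes, and the 250 bases before each start were searched on both strands for 3 motifs of factors known to act on germline or meiotic genes. The E2F motif GCGGGAA occurred in 7 of the 30 promoters (Brca2, Msh5, Prdm9, Smc1b, Syce2, Sycp3 and Tex12), against 4.381% of the 27025 genes with a promoter window (3.817% of all 32851 windows). The E-box CACGTG, which reads the same on both strands, also occurred in 7 (Cntd1, Rec114, Stag3, Syce2, Sycp1, Sycp3 and Tex12), against 6.86% of all genes (6.021% of windows). The motif CNCCTCAG of the meiotic activator STRA8 occurred in 3 (Msh5, Prdm9 and Syce2), against 7.386% of all genes (6.417% of windows). These matches are letters in a window and were not tested as sites. The matched windows of Brca2, Msh5, Rec114 and Stag3 lie inside the annotated gene, before an internal start, and that of Syce2 lies partly inside. The sequences below belong to genes whose values are given in detail: Prdm9, a gene of the trisomic segment, the synaptonemal complex genes Sycp1, Sycp3 and Tex12, and Cntd1, which differed between genotypes. Capitals mark the motifs. In Prdm9 the reverse complement of the E2F motif and the STRA8 motif share 1 base, and the last bases of its window lie inside the annotated gene. The windows are chr17:15564355-15564604 (minus strand), chr3:102936101-102936350 (minus strand), chr10:88459337-88459586 (plus strand), chr9:50561269-50561518 (minus strand) and chr11:101278953-101279202 (plus strand), each written 5′ to 3′ along the gene.
Prdm9: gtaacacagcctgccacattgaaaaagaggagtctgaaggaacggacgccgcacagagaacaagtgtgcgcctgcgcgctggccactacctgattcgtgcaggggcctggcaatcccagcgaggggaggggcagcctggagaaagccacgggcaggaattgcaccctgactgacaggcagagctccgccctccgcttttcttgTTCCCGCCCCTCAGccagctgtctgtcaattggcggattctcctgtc
Sycp1: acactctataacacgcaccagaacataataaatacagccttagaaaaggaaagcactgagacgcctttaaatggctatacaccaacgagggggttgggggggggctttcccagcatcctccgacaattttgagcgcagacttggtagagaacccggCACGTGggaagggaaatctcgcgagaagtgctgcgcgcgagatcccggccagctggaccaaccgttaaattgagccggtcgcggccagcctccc
Sycp3: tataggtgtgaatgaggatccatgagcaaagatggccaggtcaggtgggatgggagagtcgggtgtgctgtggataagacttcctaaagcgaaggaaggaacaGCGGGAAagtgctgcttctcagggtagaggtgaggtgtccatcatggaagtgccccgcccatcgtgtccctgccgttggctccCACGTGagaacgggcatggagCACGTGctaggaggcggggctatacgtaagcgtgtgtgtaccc
Tex12: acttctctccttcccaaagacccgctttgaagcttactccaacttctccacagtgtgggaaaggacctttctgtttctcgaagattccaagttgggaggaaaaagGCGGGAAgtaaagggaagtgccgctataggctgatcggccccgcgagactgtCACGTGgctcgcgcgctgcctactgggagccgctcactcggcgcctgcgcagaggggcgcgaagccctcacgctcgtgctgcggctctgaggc
Cntd1: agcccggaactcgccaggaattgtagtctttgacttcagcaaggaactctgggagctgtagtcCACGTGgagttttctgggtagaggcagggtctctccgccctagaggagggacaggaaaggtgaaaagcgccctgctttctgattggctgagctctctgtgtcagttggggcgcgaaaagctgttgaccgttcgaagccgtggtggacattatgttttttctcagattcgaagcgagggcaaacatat

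The 13 hepatocyte markers had array medians of 15.98 to 16.11 in trisomic liver and 15.89 to 16.12 in euploid liver, and of 2.30 to 2.50 in every germ cell group. The 12 pachytene markers, such as Ldhc and Pgk2, had array medians of 11.49 to 12.33 in pre-mid-pachytene arrays, 13.95 to 14.32 in mid-late-pachytene arrays and 13.72 to 14.06 in spermatid arrays. Markers of elongating spermatids, such as Prm1 and Tnp1, did not follow the labels: their array medians were 13.71 to 14.55 in pre-mid-pachytene arrays, 9.65 to 11.12 in mid-late-pachytene arrays and 13.94 to 14.69 in spermatid arrays. All 14 of these markers had means above the background range in each germ cell group. The 18 Sertoli cell markers on the array had log2 summed levels of 14.98 to 15.24 on trisomic and 14.52 to 15.33 on euploid pre-mid-pachytene arrays, where 8 and 6 of them had means below 3. In mid-late-pachytene cells these levels were 11.44 to 11.64 on trisomic and 11.59 to 11.78 on euploid arrays. In spermatids they were 11.83 to 12.26 on trisomic and 11.88 to 12.24 on euploid arrays. In these later groups 9 or 10 of the markers had means below 3. A summed level follows the highest markers, which were Ctsl and Clu in pre-mid-pachytene cells. Array medians of the 18 Sertoli cell markers were 3.43 to 3.82 in pre-mid-pachytene, 2.67 to 2.89 in mid-late-pachytene and 2.71 to 2.97 in spermatid arrays. Their part in the changes between stages was not tested. Arrays of 1 group correlated across genes with r of 0.988 to 0.997, where genes are not independent replicates.

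In liver 19 of the 34 had a trisomic mean in the background range and 20 a euploid mean there. None of the 34 had a mean below 3 in pre-mid-pachytene spermatocytes of either genotype. The highest of the 3 germ cell means lay in pre-mid-pachytene spermatocytes for 23 genes in trisomic and 25 in euploid cells, in mid-late-pachytene spermatocytes for 6 and 5, and in spermatids for 5 and 4.

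**Figure D1:**
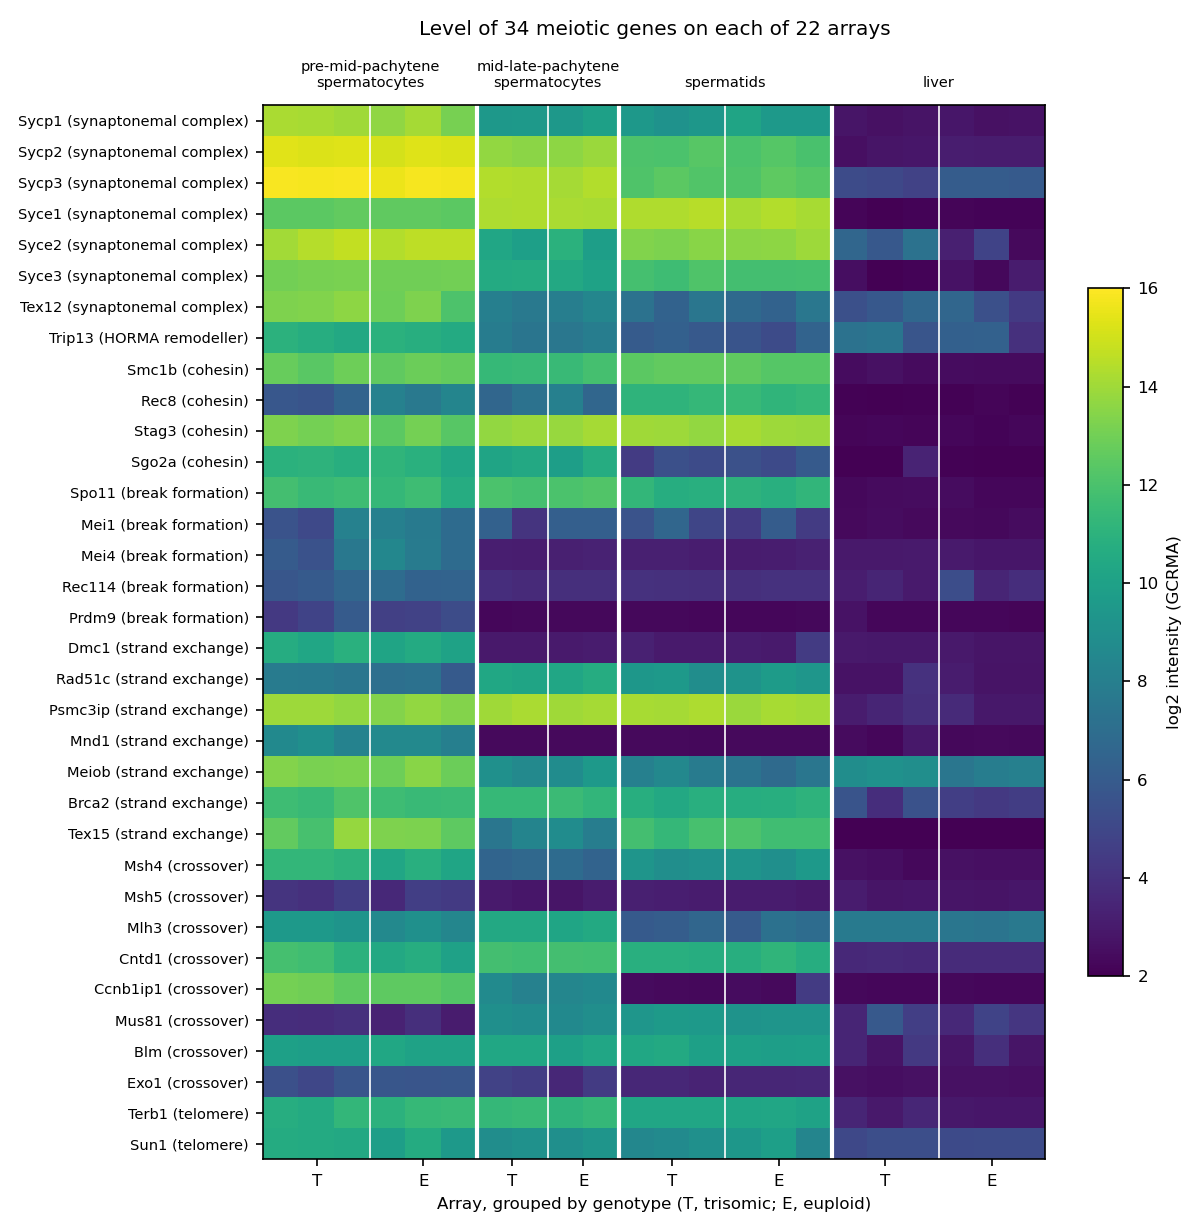
Log2 intensity of the 34 meiotic genes (down the page, with their role) on each of the 22 arrays (across, grouped by cell type and within it by genotype, T for trisomic and E for euploid). Most genes are brightest in the pre-mid-pachytene columns and dark in liver, where 19 trisomic and 20 euploid means lie below 3; colours compare arrays within a gene, not genes with each other.

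Between stages, the question was how the level of each gene changed as the cells passed through prophase and became haploid. Of 32 genes tested between mid-late- and pre-mid-pachytene spermatocytes, 7 rose and 18 fell in trisomic cells, where 78.5% of all tested genes changed (40.9% rose and 37.6% fell). In euploid cells 8 rose and 18 fell, where 78.6% of all tested genes changed (42.4% rose and 36.2% fell). Genes with a changed level were thus about as frequent here as among all genes, and the direction was mostly down: the median change of the meiotic genes was -1.36 in trisomic and -1.41 in euploid cells, against 0.08 and 0.15 over all tested genes. These counts include 5 genes in trisomic and 6 in euploid cells that passed the minimum level only through their high stage and so had to differ. They were Dmc1, Mnd1, Mei4, Rec114 and Mus81 in both genotypes, and Exo1 in euploid cells. The same 23 genes changed in the same direction in both genotypes, 5 upwards and 18 downwards.

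Between spermatids and mid-late-pachytene spermatocytes, 6 genes rose and 11 fell of 27 tested in trisomic cells, where 62.5% of all tested genes changed (28.5% rose and 34% fell). In euploid cells 6 rose and 12 fell, where 64.4% of all changed (29.6% rose and 34.8% fell). The median change was -0.24 in trisomic and -0.56 in euploid cells, against -0.12 and -0.13 over all tested genes. Without trisomic mid-late-pachytene replicate 2 the trisomic median was -0.64, and the euploid median was -0.23 with a minimum mean of 6 and -0.089 with no minimum. For this step 1 gene in each genotype, Ccnb1ip1, passed the minimum level only through its high stage and so had to differ. Between spermatids and pre-mid-pachytene spermatocytes, 5 genes rose and 23 fell of 32 tested in trisomic cells, where 84.9% of all tested genes changed (46% rose and 38.9% fell). In euploid cells 7 rose and 21 fell, where 84.7% of all changed (47.8% rose and 36.9% fell). The median change was -1.53 in trisomic and -1.19 in euploid cells, against 0.24 and 0.36 over all genes. In each genotype 7 of the 32 passed the minimum level only through their high stage and so had to differ. These were Dmc1, Mnd1, Mei4, Rec114, Mus81, Ccnb1ip1 and Exo1. Quantile normalization moved the last pair of medians over all genes by -0.27 and -0.30, so small stage changes depend on the scaling.

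**Figure D2:**
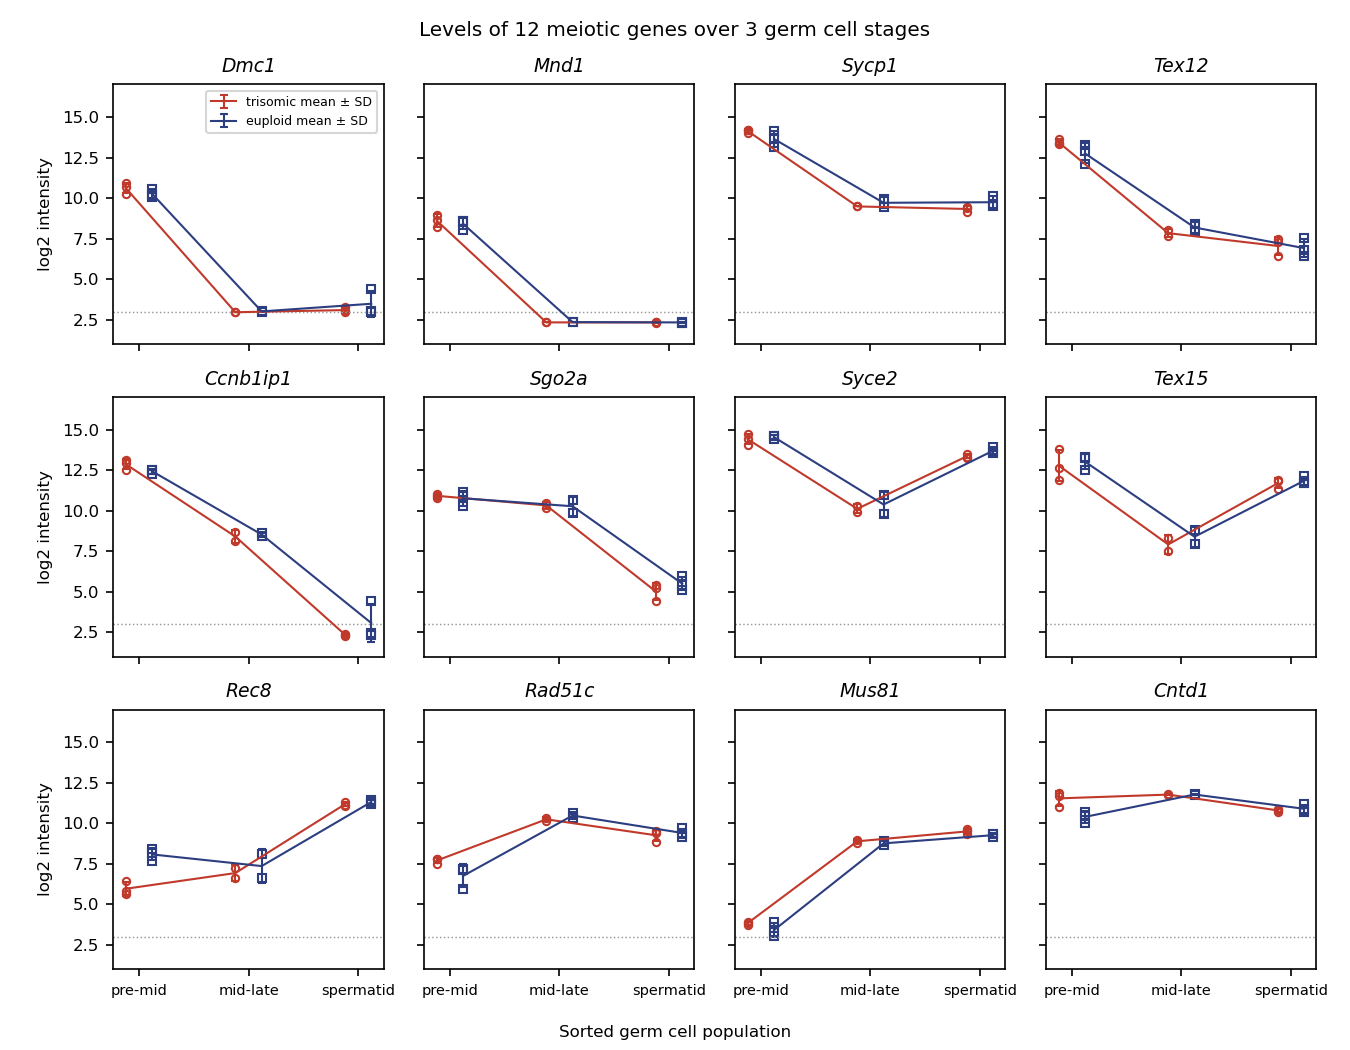
Log2 intensity of 12 meiotic genes in the 3 germ cell stages, from pre-mid pachytene on the left to spermatids on the right; points are arrays, lines join group means, error bars are SD (red circles trisomic, blue squares euploid), and the dotted line at 3 is the top of the background range. Mnd1 reaches the background range after the pre-mid-pachytene stage and Dmc1 comes close to its top, Syce2 and Tex15 are lowest in the mid-late-pachytene stage, and Rec8, Rad51c and Mus81 are lowest in the pre-mid-pachytene stage in trisomic cells.

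The synaptonemal complex genes did not share 1 course. Sycp1, which codes for the transverse filament that bridges the axes, averaged 14.14 ± 0.11, 9.49 ± 0.00 and 9.33 ± 0.15 over the 3 stages in trisomic cells (SD, n = 3, 2 and 3). In euploid cells it averaged 13.65 ± 0.51, 9.71 ± 0.33 and 9.75 ± 0.35 with the same n. It thus fell in mid-late-pachytene cells, with a change of -4.65 in trisomic cells (SE 0.24, adjusted p = 2.88e-12) and with a change of -3.93 in euploid cells (SE 0.24, adjusted p = 3.21e-11), and no further change to spermatids passed the test. Sycp2 and Sycp3, which code for proteins of the lateral elements, fell in both steps: Sycp3 changed by -1.50 and -2.07 in trisomic and by -1.48 and -1.93 in euploid cells. Tex12, which codes for a central element protein, fell in mid-late-pachytene cells, with changes of -5.60 in trisomic and -4.56 in euploid cells.

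Syce1, another central element gene, went the other way. It rose by 1.77 in trisomic cells (SE 0.13, adjusted p = 3.78e-10) and by 1.67 in euploid cells (SE 0.13, adjusted p = 8.94e-10) between pre-mid- and mid-late-pachytene spermatocytes and stayed within 0.07 of that mean in spermatids. The central element gene Syce2 was lowest in the middle stage, with 14.08, 14.42 and 14.73 on the pre-mid-pachytene arrays, 10.31 and 9.92 on the mid-late-pachytene arrays and 13.33, 13.24 and 13.49 on the spermatid arrays of trisomic males. In euploid males it had 14.41, 14.60 and 14.60, then 10.94 and 9.83, then 13.55, 13.62 and 13.93. No array of the middle stage overlapped those of the stages before and after it. Syce3, a further central element gene, had the same order, with a rise of 1.28 in trisomic and 1.57 in euploid cells between the middle stage and spermatids.

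In both genotypes 6 genes rose between mid-late-pachytene spermatocytes and spermatids: Syce2, Syce3, the cohesin genes Smc1b and Rec8, Tex15, which is needed to load recombinases onto breaks, and Msh4, which codes for a subunit of the complex that stabilises crossover intermediates. Msh4 averaged 11.19, 6.62 and 9.10 over the 3 stages in trisomic cells and 10.47, 6.67 and 9.27 in euploid cells. Tex15 averaged 12.79, 7.92 and 11.70 in trisomic cells and 13.03, 8.40 and 11.85 in euploid cells. The markers of elongating spermatids were also higher in spermatids than in mid-late-pachytene cells, with a log2 summed level of 17.76 to 18.41, 15.94 to 15.96 and 18.19 to 18.68 over the 3 stages on trisomic arrays and 17.91 to 18.18, 15.79 to 16.27 and 18.60 to 18.81 on euploid arrays. Their part in the course of the 6 genes was not tested.

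Several genes of break repair fell to about the background range in mid-late-pachytene cells. Dmc1 and Mnd1 passed the minimum level for this step only through their high stage and so had to differ. Dmc1, the meiosis-specific recombinase, had 10.68, 10.28 and 10.91 on the trisomic pre-mid-pachytene arrays and 10.20, 10.57 and 10.05 on the euploid ones. In mid-late-pachytene spermatocytes it had 2.97 and 2.98 on trisomic arrays and 3.01 and 3.04 on euploid arrays, close to the top of the background range. Mnd1, whose protein works with that of Psmc3ip to help DMC1 pair homologous DNA, averaged 8.62 in trisomic and 8.43 in euploid pre-mid-pachytene cells and 2.35 and 2.37 in the next stage. Its partner Psmc3ip kept levels between 13.38 and 14.27 on all germ cell arrays. The Psmc3ip changes in euploid cells of 0.54 and 0.53 relative to the pre-mid-pachytene stage passed the test, but were -0.22 and -0.31 after quantile normalization, and each lost its call when single arrays were left out. The first did not pass without any array of the 5 other than euploid pre-mid-pachytene replicate 2 (adjusted p up to 0.157), nor the second without spermatid replicate 2 or pre-mid-pachytene replicate 1 or 3 (up to 0.0721).

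Among the genes of break formation, Mei4 and Rec114, which code for partners of the SPO11 machinery, were measured above 5 on every pre-mid-pachytene array and at or below 4.01 on every later germ cell array. Both passed the minimum level only through their high stage and so had to differ. Spo11 itself stayed above the background range, with means of 11.65, 11.95 and 10.95 over the 3 stages in trisomic cells and 11.21, 12.10 and 11.04 in euploid cells. Its rise into mid-late pachytene passed in euploid cells only. Its fall between pre-mid-pachytene spermatocytes and spermatids passed in trisomic cells only. Ccnb1ip1, which codes for the ubiquitin ligase HEI10 that marks crossover sites, fell in each step, with means of 12.87, 8.41 and 2.37 over the 3 stages in trisomic cells and 12.43, 8.54 and 3.08 in euploid cells. On the spermatid arrays all values of Ccnb1ip1 lay in the background range except 4.45 on euploid replicate 3. That array also had the highest Dmc1 value of the spermatid arrays, 4.43.

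Rad51c, a gene of homologous recombination, and Mus81, a nuclease subunit that cuts joint molecules, increased after the pre-mid-pachytene stage. Mus81 had 3.85, 3.75 and 3.94 on trisomic and 3.32, 3.89 and 3.04 on euploid pre-mid-pachytene arrays. It had 8.97 and 8.81 on trisomic and 8.64 and 8.89 on euploid mid-late-pachytene arrays, with no overlap between the stages. Mus81 passed the minimum level for this step only through its high stage and so had to differ. Rad51c rose by 2.54 in trisomic cells (SE 0.37, adjusted p = 4.97e-06) and by 3.72 in euploid cells (SE 0.37, adjusted p = 3.19e-08). Mlh3, which codes for a protein that resolves crossovers, rose into mid-late pachytene by 0.99 in trisomic and 1.69 in euploid cells and then fell in spermatids, with changes of -4.21 and -3.65. Sgo2a, whose product protects centromeric cohesin until the second meiotic division, fell between mid-late-pachytene spermatocytes and spermatids, with changes of -5.30 in trisomic and -4.76 in euploid cells.

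Among the other cohesin genes, Rec8, the kleisin subunit of meiotic cohesin, had its highest level in spermatids in both genotypes, at 11.08, 11.11 and 11.33 on trisomic and 11.43, 11.16 and 11.34 on euploid arrays. Stag3, a further meiotic cohesin subunit, averaged 13.22, 13.83 and 13.90 over the stages in trisomic cells and 12.63, 13.97 and 14.00 in euploid cells. Its rise into mid-late pachytene was 0.61 in trisomic cells (SE 0.19, adjusted p = 0.00702) and 1.35 in euploid cells (SE 0.19, adjusted p = 3.28e-06). The trisomic rise did not pass without trisomic mid-late-pachytene replicate 2 (adjusted p = 0.0610). Of the telomere genes, Terb1, which tethers telomeres to the nuclear envelope, lay between 10.04 and 11.49 on all germ cell arrays. Its means over the 3 stages were 10.84, 11.38 and 10.29 in trisomic and 11.27, 11.20 and 10.18 in euploid cells. The change into mid-late pachytene passed in trisomic cells only. Sun1, which codes for the envelope protein that telomeres attach to, fell into mid-late pachytene by 1.59 in trisomic and by 0.84 in euploid cells. The euploid change did not pass without euploid mid-late-pachytene replicate 1 (adjusted p = 0.168), nor without euploid pre-mid-pachytene replicate 2, where it was -0.55 (adjusted p = 0.148).

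The next question was whether trisomic and euploid cells of the same type differed. In pre-mid-pachytene spermatocytes 33 meiotic genes were tested and 5 passed: Cntd1, Msh4 and Stag3 rose and Rec8 and Mei4 fell in trisomic cells. That is 15.2% of the genes tested, against 10.3% of all 8384 tested genes (5.88% rose and 4.46% fell). Trisomic and euploid arrays did not overlap for 10 of the 33 genes, against 30.3% of all genes. The median change was 0.15 for the meiotic genes and 0.11 for all tested genes.

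Rec8 had the largest change of the 33 genes. Its level was 5.82, 5.64 and 6.44 on the trisomic arrays and 8.18, 7.68 and 8.40 on the euploid arrays. Every trisomic array lay below every euploid one. The difference was -2.12 (SE 0.29, 95% interval -2.73 to -1.50, adjusted p = 0.000854), a 4.33-fold lower level in trisomic cells. Mei4 had 6.01, 5.54 and 7.62 on the trisomic arrays and 8.48, 7.84 and 6.87 on the euploid arrays. These groups overlapped, since trisomic replicate 3 lay above euploid replicate 3, and the difference was -1.34 (SE 0.39, adjusted p = 0.0346). Mei1, another gene needed for break formation, had the same outlying array, with 5.57, 5.09 and 8.16 on trisomic and 8.10, 7.80 and 6.89 on euploid arrays, and its difference of -1.32 did not pass (adjusted p = 0.228). Without trisomic replicate 3 it was -2.27 and passed (adjusted p = 0.0188).

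Cntd1, whose product helps to designate crossovers, had 11.89, 11.70 and 11.00 on the trisomic arrays and 10.46, 10.71 and 10.01 on the euploid arrays. The groups did not overlap, and the difference was 1.14 (SE 0.20, 95% interval 0.72 to 1.57, adjusted p = 0.00351), a 2.20-fold higher level in trisomic cells. Msh4 had 11.26, 11.27 and 11.03 on trisomic and 10.31, 10.86 and 10.25 on euploid arrays, again without overlap, and differed by 0.72 (SE 0.19, adjusted p = 0.0243). Stag3 had 13.29, 13.06 and 13.31 on trisomic and 12.46, 13.08 and 12.35 on euploid arrays. Here euploid replicate 2 lay above trisomic replicate 2, and the difference was 0.59 (SE 0.17, adjusted p = 0.0360).

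**Figure D3:**
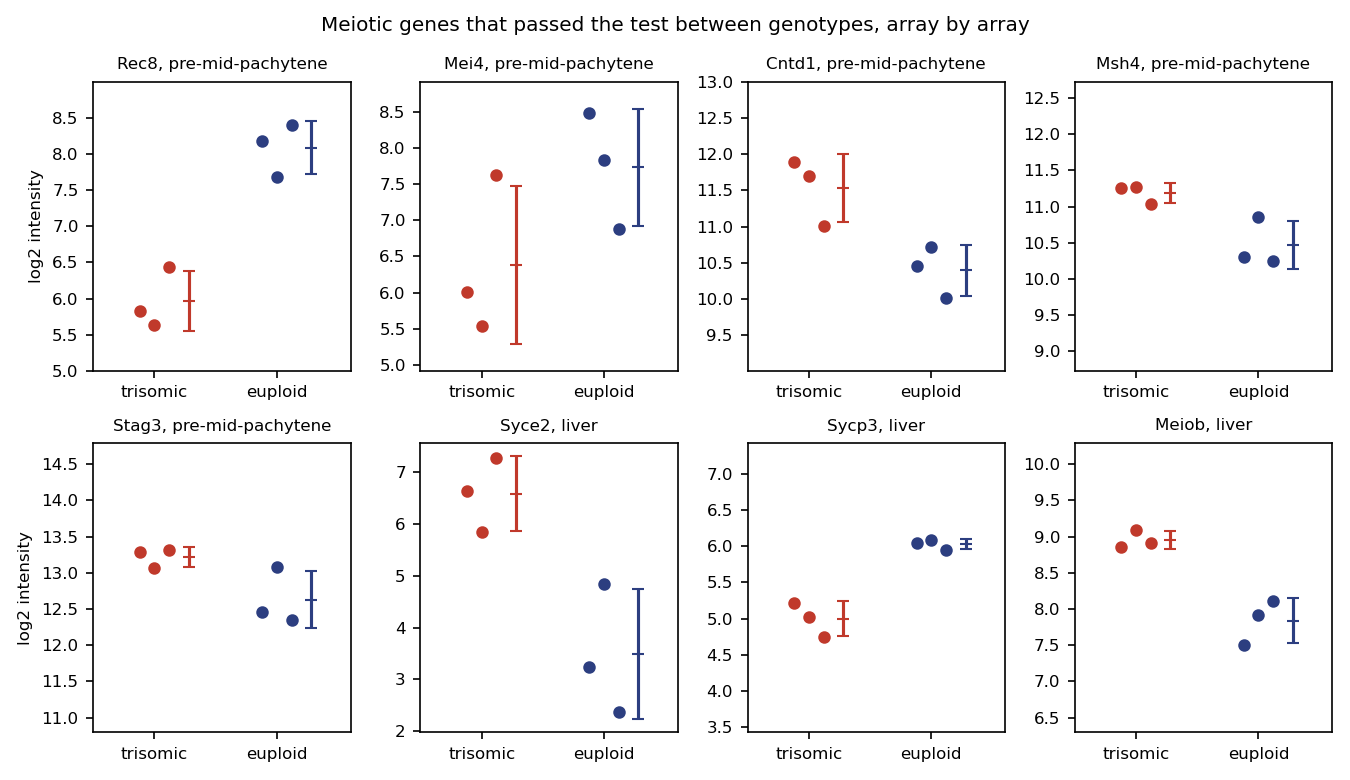
Log2 intensity on each array (points, replicates 1 to 3 from left to right) with the group mean ± SD beside them, trisomic left and euploid right, for the 8 differences between genotypes that passed the test. The groups are apart in 6 panels and overlap for Mei4 and Stag3; panels have their own ranges.

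The 7 synaptonemal complex genes did not pass in these cells, with differences of -0.13 for Syce2 to 0.68 for Tex12. The 95% interval of Sycp3 was -0.20 to 0.43 and that of Syce1 was -0.24 to 0.24. None of the 7 strand exchange genes passed either, and Rad51c had the largest difference among them, 0.95 (adjusted p = 0.0775), with 7.82, 7.80 and 7.50 on trisomic and 7.12, 7.21 and 5.94 on euploid arrays. Among the 7 crossover genes tested, 2 rose, and Mlh3 had a difference of 0.77, with no overlap, that did not pass (adjusted p = 0.0578). Without euploid replicate 2 the differences of Rad51c and Mlh3 were 1.18 and 0.94 and passed (adjusted p = 0.0425 and 0.0321). So did those of the synaptonemal complex gene Sycp1, at 0.73 (adjusted p = 0.0297), and of Spo11, at 0.66 (adjusted p = 0.0437). Exo1, an exonuclease of crossover resolution, and Blm, a helicase that dissolves joint molecules, had differences of -0.35 and -0.26. Mus81 was below the minimum level of 4 and was not tested in these cells. The telomere gene Terb1 did not pass, but without trisomic replicate 3 its difference was -0.65 and passed (adjusted p = 0.0285).

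**Figure D4:**
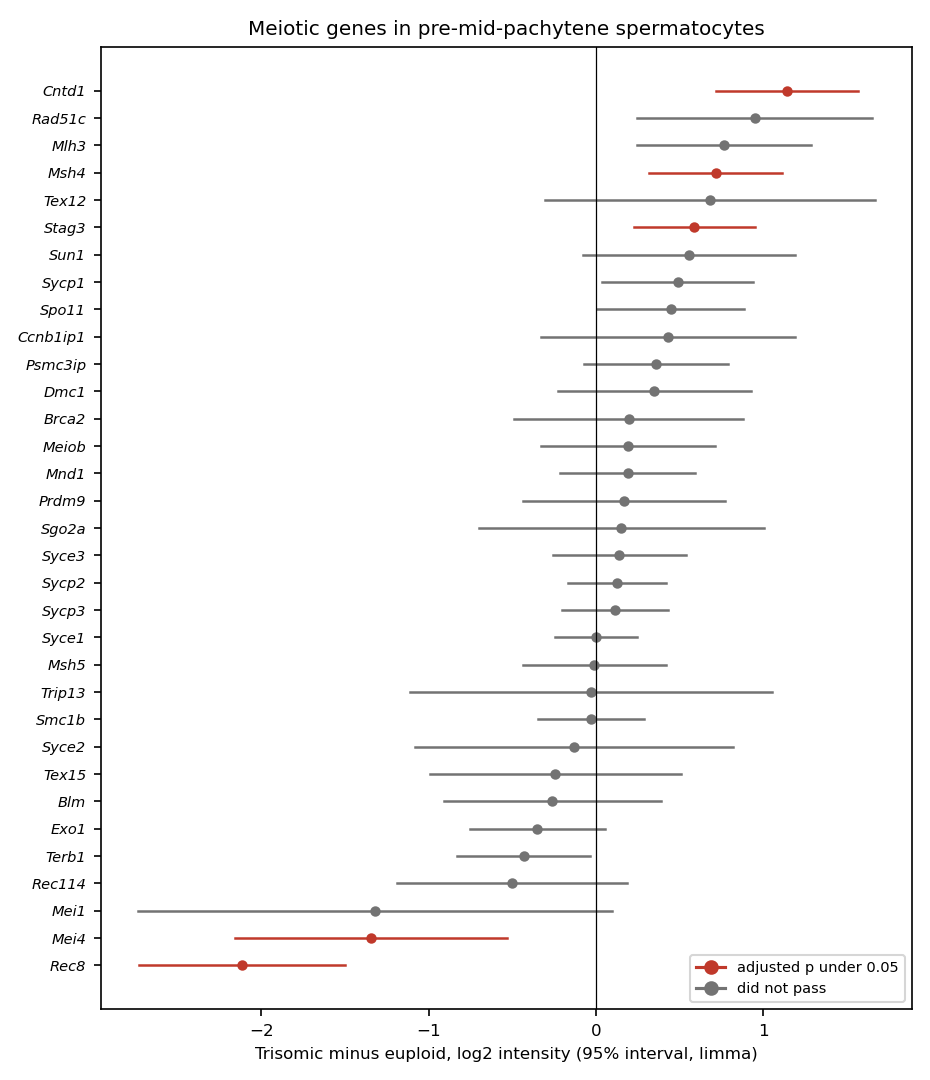
Trisomic minus euploid difference of log2 intensity in pre-mid-pachytene spermatocytes for the 33 meiotic genes tested, sorted from highest to lowest, with the 95% interval of limma. Red marks the 5 genes with an adjusted p under 0.05 over all genes, which run between 1.14 for Cntd1 and -2.12 for Rec8.

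Some markers of round spermatids were lower in trisomic cells on the same arrays. Of the 13 tested, 5 fell, against 4.46% of all tested genes, and none rose. These were Acrv1, Catsper1, Catsper3, Spaca3 and Spaca7 (named after their values were seen), which fell by 1.22 for Spaca7 to 2.03 for Spaca3. Of the 13 differences, 11 were negative and 2 positive. The array medians of this list were 8.92 to 9.35 in trisomic and 9.60 to 10.90 in euploid arrays. The log2 summed levels, 15.71 to 15.95 in trisomic and 15.47 to 16.01 in euploid arrays, overlapped. Of 11 pachytene markers tested, 1 rose (Ybx2, by 0.49, named after its value was seen), while none of 14 elongating spermatid, 8 Sertoli cell and 5 spermatogonial markers passed. Their part in the changes of the meiotic genes was not tested. With the spread estimated from the arrays of this cell type alone, 0 of the 33 genes passed (4 of all genes did), with adjusted p between 0.0887 for Rec8 and 0.242 for Mei4 among the 5. Rec8 and Cntd1 passed when any of the 6 arrays was left out, but Mei4 did not without replicate 1 or 2 of either genotype (adjusted p of 0.0664 to 0.190). Msh4 did not pass without euploid replicate 1 or 3 or trisomic replicate 1 or 2 (0.0815 to 0.106), and Stag3 without any array other than euploid replicate 2 (0.0672 to 0.160). Mei4 also lost its call without the filter on low levels (0.0754) and with the replicate block (0.0963), and Stag3 with quantile normalization (0.132) and with the block (0.0675). The count was 2 without euploid replicate 1, trisomic replicate 1 or trisomic replicate 2, 3 without euploid replicate 3 and 8 without euploid replicate 2.

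In mid-late-pachytene spermatocytes none of 28 meiotic genes passed, against 0.965% of all 8085 tested genes. At an unadjusted p under 0.05 there was 1, Exo1, with 4.77 and 4.54 on trisomic and 3.54 and 4.46 on euploid arrays (difference 0.66, SE 0.23, adjusted p = 0.338). Exo1 passed the minimum level only through its trisomic arrays. Its difference was 0.20 without euploid replicate 1, and 1.12, which passed, without euploid replicate 2 (adjusted p = 0.0138). The arrays did not overlap for 4 of the 28 genes, against 33% of all genes. The median difference was -0.09, against 0.00 over all genes. Rec8, which fell at the earlier stage, had 6.60 and 7.27 on trisomic and 8.11 and 6.62 on euploid arrays, with overlap, and a difference of -0.43 (95% interval -1.18 to 0.32). Without euploid replicate 1 it was 0.31. Cntd1 had 11.80 and 11.73 on trisomic and 11.81 and 11.73 on euploid arrays, and its interval was -0.52 to 0.51.

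In spermatids none of 26 meiotic genes passed either, against 0.821% of all 8283 tested genes, and 1 had an unadjusted p under 0.05. Arrays did not overlap for 4 of the 26, against 13% of all genes, and the median difference was -0.06, against 0.01 over all genes. The gene with the unadjusted p under 0.05 was Meiob, described below. Rec8 differed by -0.14 (95% interval -0.75 to 0.48), and Stag3 and Cntd1 by -0.10 each.

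Genes within the first 30 Mb of chromosome 17 were counted as trisomic, because the labels do not give the breakpoint. This stretch held Prdm9 (chr17:15543072-15564374) and Meiob (chr17:24804301-24839788), while Msh5 (chr17:35028605-35046997) lay outside. Prdm9 codes for the histone methyltransferase that places recombination hotspots. Among the 4 cell types it was above the background range in pre-mid-pachytene spermatocytes only, with 4.31, 4.81 and 6.03 on trisomic and 4.63, 4.75 and 5.27 on euploid arrays. The groups overlapped, and the difference of 0.17 did not pass (SE 0.29, 95% interval -0.43 to 0.77, adjusted p = 0.767). It ranked 91st among the 154 tested segment genes, whose median difference was 0.24, and was -0.32 without trisomic replicate 3. In all later cells and in liver no Prdm9 array exceeded 2.69.

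Meiob codes for a relative of replication protein A that binds single-stranded DNA at meiotic breaks. In pre-mid-pachytene spermatocytes it had 13.43, 13.18 and 13.26 on trisomic and 12.92, 13.53 and 12.83 on euploid arrays, with overlap, and a difference of 0.19 (SE 0.25, adjusted p = 0.678). At the mid-late-pachytene stage it had 9.05 and 8.61 on trisomic and 8.83 and 9.52 on euploid arrays, again with overlap, and a difference of -0.34 (SE 0.30, adjusted p = 0.999). Without euploid replicate 2 of that stage the difference was 0.01. In spermatids the arrays were apart, at 8.09, 8.51 and 7.80 on trisomic and 7.34, 6.85 and 7.50 on euploid arrays, but the difference of 0.91 did not pass (SE 0.25, 95% interval 0.39 to 1.43, adjusted p = 0.0962). In liver Meiob had 8.86, 9.09 and 8.92 on trisomic and 7.50, 7.91 and 8.11 on euploid arrays, without overlap. There it rose by 1.12 in trisomic males (SE 0.24, 95% interval 0.60 to 1.63, adjusted p = 0.00665), a 2.17-fold higher level.

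Set beside the tested genes of the segment, Meiob ranked 87th of 154 in pre-mid-pachytene spermatocytes, 140th of 144 in mid-late-pachytene spermatocytes, 7th of 148 in spermatids and 25th of 144 in liver, counted from the largest increase. The medians of these genes were 0.24, 0.30, 0.36 and 0.67 in the same order. Of them 16, 1, 3 and 68 passed as higher in trisomic males and 2, 0, 0 and 0 as lower. A call like that of Meiob in liver was thus frequent among the segment genes there. The difference of the Meiob effect between spermatids and mid-late-pachytene spermatocytes was 1.25 (SE 0.39) and did not pass (adjusted p = 0.718).

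**Figure D5:**
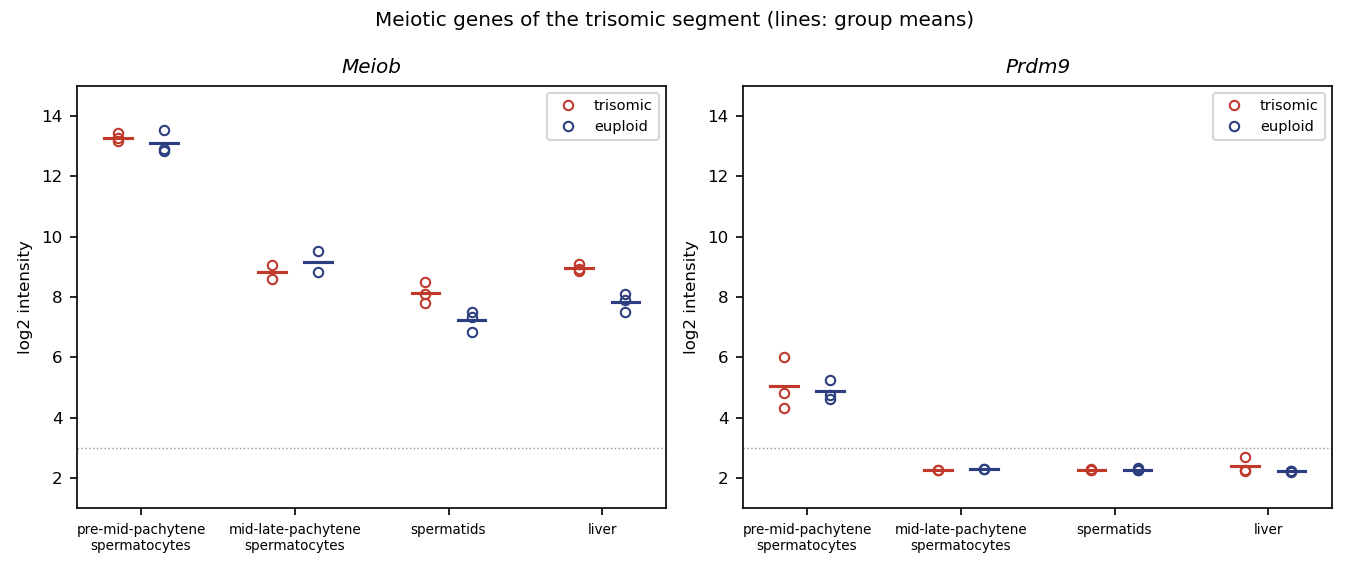
Log2 intensity of Meiob (left panel) and Prdm9 (right panel) on each array in the 4 cell types, with short lines at the group means; red is trisomic, blue is euploid, and the dotted line at 3 is the top of the background range. The groups of Meiob are apart in spermatids and in liver and overlap in both kinds of spermatocytes, and Prdm9 lies above the line in pre-mid-pachytene spermatocytes only.

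In liver 9 of the 34 genes were high enough to test, and Syce2 and Meiob rose and Sycp3 fell in trisomic males, against 9.55% of all 8180 tested genes (5.77% rose and 3.78% fell). The groups did not overlap for 4 of the 9 genes, against 23.1% of all genes. Syce2 had 6.63, 5.83 and 7.28 on trisomic and 3.24, 4.84 and 2.37 on euploid arrays. All trisomic arrays lay above the euploid ones, and 1 euploid array was in the background range. The difference was 3.10 (SE 0.46, 95% interval 2.13 to 4.06, adjusted p = 0.000264). Syce2 passed the minimum level only through its trisomic arrays. Sycp3 had 5.22, 5.03 and 4.75 on trisomic and 6.05, 6.09 and 5.95 on euploid arrays, without overlap, and fell by 1.03 (SE 0.14, adjusted p = 0.000129). Its liver levels lay far below its germ cell levels, whose lowest array was 12.13. Trip13, which codes for the ATPase that removes HORMA domain proteins from synapsed axes, had 7.27, 7.46 and 5.72 on trisomic and 6.27, 6.36 and 3.94 on euploid arrays, with overlap, and its difference of 1.29 did not pass (adjusted p = 0.142). Without trisomic replicate 3 it was 1.84 and passed (adjusted p = 0.0330).

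None of the 13 hepatocyte markers passed in liver, while 1 of 4 peritubular or fibroblast markers rose (Col1a2, by 1.66), the 1 erythroid marker tested fell (Alas2, by 1.54) and 1 of 3 spermatogonial markers fell (Gfra1, by 2.01), all named after their values were seen. Their part in the changes of Syce2, Meiob and Sycp3 was not tested. With the spread estimated from the liver arrays alone, none of the 3 genes passed, with adjusted p of 0.117 for Syce2, 0.0738 for Meiob and 0.0675 for Sycp3.

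Whether the genotype difference itself changed between stages was tested as an interaction. Between germ cell stages, none of the 32 meiotic genes passed between mid-late- and pre-mid-pachytene spermatocytes (0.14% of all genes did), none of 27 between spermatids and mid-late-pachytene spermatocytes (0.0716% of all) and none of 32 between spermatids and pre-mid-pachytene spermatocytes (0.194% of all). At the looser threshold of an unadjusted p under 0.05 there were 6, 1 and 11 genes. The share of all genes at that threshold was not computed, so no excess can be read from these counts. The genotype difference of Rec8 was 1.98 higher in spermatids in the last of these tests (SE 0.41, adjusted p = 0.0572), and that of Cntd1 was -1.24 (SE 0.29, adjusted p = 0.0742). Cntd1 was also the 1 gene of 26 changed in both genotypes between spermatids and pre-mid-pachytene spermatocytes whose direction differed: it changed by -0.74 in trisomic and 0.50 in euploid cells, the second of which was -0.14 after quantile normalization. The euploid change did not pass without euploid pre-mid-pachytene replicate 3, where it was 0.31 (adjusted p = 0.173), nor without euploid spermatid replicate 2.

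The genotype difference was also set between liver and each germ cell stage, in tests added after the values were seen. It differed for 4 of 32 meiotic genes between liver and pre-mid-pachytene spermatocytes (6.29% of all tested genes), for 2 of 26 between liver and mid-late-pachytene spermatocytes (1.81% of all) and for 2 of 24 between liver and spermatids (1.92% of all). Syce2 and Sycp3 passed in all 3 tests, and Rec8 and Cntd1 in the first only. In liver, trisomic and euploid means were 2.07 and 2.12 for Rec8 and 3.63 and 3.73 for Cntd1, below the minimum level of 4. They entered the test only through their germ cell arrays, so their calls largely repeat the pre-mid-pachytene difference. Of the 34 genes, 9 had a mean of at least 4 in trisomic liver and 9 in euploid liver, but these were not the same genes. Syce2 reached that level in trisomic liver only (6.58, against 3.49 in euploid liver). Rec114 reached it in euploid liver only (4.20, against 3.20 in trisomic liver). With the replicate block Syce2 did not pass against mid-late-pachytene spermatocytes or against spermatids.

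A wider list of genes of the same processes, such as cohesin loaders, break sensors and regulators of meiotic entry, held 106 genes, of which 80 were on the array. In pre-mid-pachytene spermatocytes 3 of 75 tested changed, against 10.3% of all tested genes: Pcgf6, a subunit of a repressive Polycomb complex, rose by 0.88 (SE 0.24, adjusted p = 0.0280), and Palb2, the partner of BRCA2, rose by 0.82 (SE 0.22, adjusted p = 0.0280). Pms2, a mismatch repair gene, fell by 0.68 (SE 0.18, adjusted p = 0.0235). None of 61 passed in mid-late-pachytene spermatocytes, none of 63 in spermatids and none of 47 in liver, against 0.965%, 0.821% and 9.55% of all tested genes. At an unadjusted p under 0.05 there were 1, 2 and 8, and the share of all genes at that threshold was not computed. Between mid-late- and pre-mid-pachytene spermatocytes 32 of 74 rose and 28 fell in trisomic cells, and 35 rose and 28 fell in euploid cells, against 78.5% and 78.6% of all tested genes changed. The largest of these changes was in Tex11, which codes for a crossover regulator, at -7.96 in trisomic and -7.82 in euploid cells. Stra8, which codes for the activator of meiotic entry, changed by -6.10 in trisomic and -6.70 in euploid cells.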

How the data were processed

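RNA of 22 samples was measured on Affymetrix arrays. Per the submitters' processing notes, the authors made the deposited log2 intensities with GCRMA, whose version is not given in the sources used here. Its background model uses the base content of the probes and differences near background are less reliable. Of 16539 probe sets, 759 carried no gene name and were not used here. Values ran between 0.90 and 16.75 and array medians between 4.10 and 4.69. The number of arrays limits the precision.

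Groups came from the sample titles. The 8 group means were fitted over all 22 arrays with limma 3.58.1 (R 4.3.3), on genes with a mean of at least 4 over the arrays compared. Two-sided moderated tests were adjusted by Benjamini-Hochberg over all tested genes, with calls at 0.05, and intervals are 95%. Shares of all genes are given for calls and for arrays without overlap, not for unadjusted p. The procedure was tested on simulated data. Alternatives were no filter, a mean of at least 6, quantile normalization, autosomal centring, trend and robust spread, only the arrays compared, a replicate block and each array left out. Interactions between liver and germ cells were added after the values were seen.

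The genes and all lists were chosen with earlier results of these data known. Any gene of the list could be named. Wider-list genes were named by size of change among called genes without overlap, up to 6 a comparison, and markers by level.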

Additional observations from a re-analysis of the deposited data

Results flagged for a closer look

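The trisomic minus euploid difference of Syce2 and Sycp3 differed between liver and each of the 3 germ cell stages, and that of Rec8 and Cntd1 between liver and pre-mid-pachytene spermatocytes, by interaction tests added after the values were seen. Between liver and pre-mid-pachytene spermatocytes 4 of 32 tested genes passed, against 6.29% of all tested genes. The change of Syce2 was 3.22 higher in liver (SE 0.65, adjusted p = 0.00852), and that of Sycp3 was -1.14 (SE 0.20, adjusted p = 0.00390). Those of Rec8 and Cntd1 were 2.06 (SE 0.41, adjusted p = 0.00872) and -1.24 (SE 0.28, adjusted p = 0.0171). In liver Rec8 lay in the background range on all arrays, and Cntd1 had levels close to it, at 3.62 to 3.75. Both entered this test only through their germ cell arrays.

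Between liver and mid-late-pachytene spermatocytes 2 of 26 tested genes passed, against 1.81% of all: Syce2 at 3.36 (SE 0.72, adjusted p = 0.0205) and Sycp3 at -1.13 (SE 0.23, adjusted p = 0.0143). The count was 1 without replicate 1 of the euploid or replicate 2 of the trisomic mid-late-pachytene arrays and 0 without replicate 1 of the trisomic ones. Between liver and spermatids 2 of 24 passed, against 1.92% of all: Syce2 at 3.44 (SE 0.65, adjusted p = 0.00878) and Sycp3 at -0.99 (SE 0.20, adjusted p = 0.0151). With the spread taken from the arrays compared, 3, 0 and 0 genes passed in the 3 tests, and with the replicate block 1 gene passed in each of the last pair, without Syce2. Autosomal centring gave 7 in the first, 2 higher and 5 lower. The cause was not tested.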

How the results depend on the processing

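Calls between genotypes depended on the estimate of the spread. With only the arrays of the cell types compared, 0 genes passed in pre-mid-pachytene spermatocytes and 0 in liver, where Meiob kept its 1.12 (adjusted p = 0.0738). A minimum mean of 6 left 1 call of 3 tested genes in liver. Quantile normalization and autosomal centring gave 6 (3 higher, 3 lower) and 7 (5 higher, 2 lower) calls in pre-mid-pachytene spermatocytes. Quantile normalization turned Meiob there to -0.033, Psmc3ip to -0.22 (mid-late minus pre-mid pachytene, euploid) and -0.31 (spermatids minus pre-mid), and Cntd1 to -0.14. It also moved the median of all genes by -0.16 in the first and -0.30 in the second of these comparisons, and centring moved them by 0.33 and 0.15. With 1 array left out, the calls ranged between 2 and 8 in pre-mid-pachytene spermatocytes, 0 and 1 in mid-late-pachytene spermatocytes, and 3 and 4 in liver. Prdm9 ranged between -0.32 and 0.54 in pre-mid-pachytene spermatocytes and Meiob between -0.68 and 0.0060 in mid-late-pachytene spermatocytes. Interaction calls ranged between 0 and 1 for mid-late against pre-mid pachytene and between 0 and 3 for spermatids against pre-mid pachytene. The last count was also 1 with quantile normalization, with centring and with the replicate block. The labels do not say whether replicate numbers pair the samples, and correlations between arrays could not settle it. Same-numbered arrays deviated together with r of 0.096 to 0.21 in liver and -0.11 to 0.35 in spermatids. This r was -0.036 at the mid-late-pachytene stage and -0.12 to 0.19 at the pre-mid-pachytene stage. With 2 mid-late-pachytene arrays per group, r for the same and for the other number can only be opposite in sign. Every liver pair correlated best with its own number, a hint from the data and not the design. With the block, 4 genes passed in pre-mid-pachytene spermatocytes, without Mei4 (adjusted p = 0.0963) and Stag3 (adjusted p = 0.0675), and 4 in liver. The causes were not tested unless the alternative itself removed genes or arrays. The other 217 values of the main results kept their direction and call, or stayed within 1.5 times the count.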
